A study of Homo sapiens with 6 samples.

Results

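The HOX genes were described from ATAC-seq peak lists of U937 cells, an established human monocytic line derived from a histiocytic lymphoma. ATAC-seq marks open DNA by where a transposase can insert sequencing adapters. Members were the protein-coding genes named HOXA, HOXB, HOXC or HOXD plus a number, which gave 39 of 19974 protein-coding genes on chromosomes 1-22 and X. There were 11 HOXA genes, 10 HOXB genes, 9 HOXC genes and 9 HOXD genes. The 3 ΔNSPs clones had been depleted at once of 3 neutrophil serine proteases (NSPs), which are encoded by CTSG (cathepsin G), ELANE (elastase) and PRTN3 (proteinase 3). The 3 control lines carried control plasmids. All 6 were genetically modified U937 cells under geneticin selection, treated with DNase and cryopreserved before the assay. The series describes the clones as independent, and each was a separate line, so differences between clones and controls rest on 3 lines each.

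Each library is represented by a list of peaks, and a site missing from a list was not called there, which is not a measurement of closed chromatin. On chromosomes 1-22, X and Y the lists of clones 1, 2 and 3 held 14262, 24981 and 2188 peaks, against 13, 4 and 2 for control lines 1, 2 and 3. Read totals are not in the lists. The depth behind a peak is given below as its pile-up (reads stacked at the summit) over its local background, both calculated from the authors' fold enrichment and −log10 p. Below, a gene-end peak is one within 1000 bp of either end of a gene, and it is called recurrent where 2 or more clones but no control line had one. Among lineage genes, recurrent gene-end peaks were listed for 3 of 12 monocytic and myeloid markers (CEBPE, ITGAM and CD68), 0 of 4 B cell markers, 1 of 4 T cell markers (CD3E), 1 of 4 erythroid markers (KLF1, in all 3 clones) and 0 of 4 epithelial markers, against 23.3% of all protein-coding genes. The share of the monocytic and myeloid markers (25%) was thus near that of all genes. Of the other myeloid markers, CD14 (fold 4.34), CSF1R (6.37) and CD33 (4.29) had one in clone 2 alone. CEBPA (2.51) and CEBPB (4.57) had one in clone 1 alone. The remaining 4 of 12, SPI1, LYZ, MPO and FCGR1A, had none in any clone. Over all protein-coding genes, 46.6% had one in at least 1 clone and in no control line.

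HOX genes encode homeodomain transcription factors that set position along the body axis. In mammals they lie in 4 clusters, within which the genes share 1 orientation and tend to be expressed in the order of their positions. Low-numbered (anterior) genes lie at the 3′ side and high-numbered (posterior) genes at the 5′ side. In blood, HOXA genes are active in progenitors and are switched off as cells mature. U937 carries the PICALM-MLLT10 (CALM-AF10) fusion, and leukaemias with that fusion are known for HOXA expression. Polycomb proteins keep clusters silent and Trithorax proteins of the MLL family keep them active, with CTCF and cohesin at borders between active and silent stretches.

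RefSeq start sites were matched for 20 of the 39 genes (27 start sites, GRCh38.p14), and 4 of the 27 promoters, each running from 250 bases before to 50 after the start, were touched by a peak. They are printed because, among promoters with a matched start site, they are the ones that a called peak touched. Of the HOXB and HOXC genes, only HOXB1, HOXC4 and HOXC5 had a matched start site. HOXC10 had none, although a clone 2 peak lay upstream of its 5′ end, with its summit 125 bp from that end. Capitals mark the bases under a peak of any clone, and each sequence is written 5′ to 3′ on the strand of its gene.
HOXA13, chr7:27200042-27200341, minus strand: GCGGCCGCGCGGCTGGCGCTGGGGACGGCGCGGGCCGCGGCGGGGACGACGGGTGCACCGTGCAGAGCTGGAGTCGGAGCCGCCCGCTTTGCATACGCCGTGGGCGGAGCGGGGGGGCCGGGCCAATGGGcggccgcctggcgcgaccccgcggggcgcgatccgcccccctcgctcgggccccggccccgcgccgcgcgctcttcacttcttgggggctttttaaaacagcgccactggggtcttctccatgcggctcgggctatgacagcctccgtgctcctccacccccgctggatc
HOXA11, chr7:27185183-27185482, minus strand: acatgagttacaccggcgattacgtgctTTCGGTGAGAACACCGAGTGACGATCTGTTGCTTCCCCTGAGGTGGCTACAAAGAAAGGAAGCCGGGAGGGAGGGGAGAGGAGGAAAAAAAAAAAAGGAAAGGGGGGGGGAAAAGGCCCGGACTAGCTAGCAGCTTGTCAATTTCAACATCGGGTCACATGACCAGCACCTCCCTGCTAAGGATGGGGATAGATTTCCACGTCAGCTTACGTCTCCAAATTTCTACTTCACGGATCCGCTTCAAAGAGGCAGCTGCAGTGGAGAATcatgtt
HOXA3, alternative start site, chr7:27150901-27151200, minus strand: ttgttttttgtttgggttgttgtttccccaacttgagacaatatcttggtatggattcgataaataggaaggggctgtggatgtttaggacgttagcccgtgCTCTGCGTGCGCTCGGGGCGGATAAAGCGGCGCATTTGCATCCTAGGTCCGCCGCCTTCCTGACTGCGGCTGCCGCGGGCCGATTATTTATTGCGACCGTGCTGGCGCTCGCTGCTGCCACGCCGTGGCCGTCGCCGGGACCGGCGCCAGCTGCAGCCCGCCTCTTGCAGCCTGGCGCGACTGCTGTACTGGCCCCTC
HOXD1, chr2:176188418-176188717, plus strand: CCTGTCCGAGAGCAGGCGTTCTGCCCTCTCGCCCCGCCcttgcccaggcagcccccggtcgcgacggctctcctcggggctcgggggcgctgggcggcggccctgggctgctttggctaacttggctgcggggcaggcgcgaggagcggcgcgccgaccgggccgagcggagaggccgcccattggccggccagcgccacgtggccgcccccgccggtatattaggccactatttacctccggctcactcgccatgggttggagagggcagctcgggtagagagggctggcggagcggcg
In HOXA13, the capitals cover 130 bases under the clone 1 peak, and 73 of them also lay under the clone 2 peak. In HOXA11 and HOXA3 they mark 266 and 198 bases under clone 1 peaks, and in HOXD1 38 bases under a clone 2 peak.

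The 4 promoters differed in base composition. G and C made up 76.3% of the HOXA13 promoter, 74.3% of HOXD1, 60.7% of HOXA3 and 51.3% of HOXA11. Their median was 67.5%, against 56.7% for the 23 HOX promoters without a peak. Those 23 came from 17 genes, with several HOXA3 start sites and an identical window for HOXC4 and HOXC5. The median was 66.7% for the 8079 protein-coding promoters under a peak of any clone and 62.3% for all 22132 protein-coding promoters. Motifs were searched on both strands, with matches allowed to overlap. The GC box GGGCGG occurred 4 times in HOXA13 (2 of them wholly under the peaks) and 4 times in HOXD1 (none wholly under the peak). In both promoters the 4 include a GC box that lies across the edge of the capitals. The motif occurred once in HOXA3 and not in HOXA11, and 56.3% of all protein-coding promoters hold it. CCAAT occurred once in HOXA13, under the peak, and once in HOXD1, away from it, against 34.6% of all promoters. The PU.1 core GAGGAA occurred once, under the peak of HOXA11, and is held by 27.9% of all promoters. TATAAA, the posterior HOX site TTTATGG and the HOX-PBX site TGATTNAT were in none of the 4 windows (9.46, 2.02 and 2.06% of all promoters).

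Few HOX genes carried a peak at their ends. In clones 1, 2 and 3, 4, 4 and 0 of the 39 genes had a peak within 1000 bp of either gene end (10.3, 10.3 and 0%), against 39.1, 29.6 and 6.55% of all protein-coding genes. In control lines 1, 2 and 3, 0 of 39 genes had one, against 0.00501, 0 and 0% of all protein-coding genes. The mean was 2.67 ± 2.31 genes in the clones and 0 in the control lines (SD, n = 3 each), a difference of 0.466 on the log10(genes + 1) scale (exact two-sided permutation p = 0.4, smallest possible 0.1). Clone 3 and the control lines shared the same value of 0, so the groups overlapped. Gene-end peaks were recurrent at 3 of 39 genes (7.69%), HOXA9, HOXA13 and HOXD1, against 23.3% of all protein-coding genes. HOXA11 and HOXC10 had a peak in 1 clone each, which made 5 of 39 genes with a peak in any clone, against 46.6% of all protein-coding genes. The other 34 genes had none in any library. None of the 39 had one in all 3 clones, against 5.4% of all protein-coding genes. The 3 recurrent genes rested on clones 1 and 2: without either of these clones the count was 0. Around RefSeq start sites alone, 6, 2 and 0 of 20 HOX genes had a peak within 1000 bp in clones 1, 2 and 3, against 42.1, 32.0 and 6.91% of protein-coding genes with a start site. Within 500 bp the counts were 5, 2 and 0 of 20, against 40.6, 29.7 and 6.55%.

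**Figure D1:**
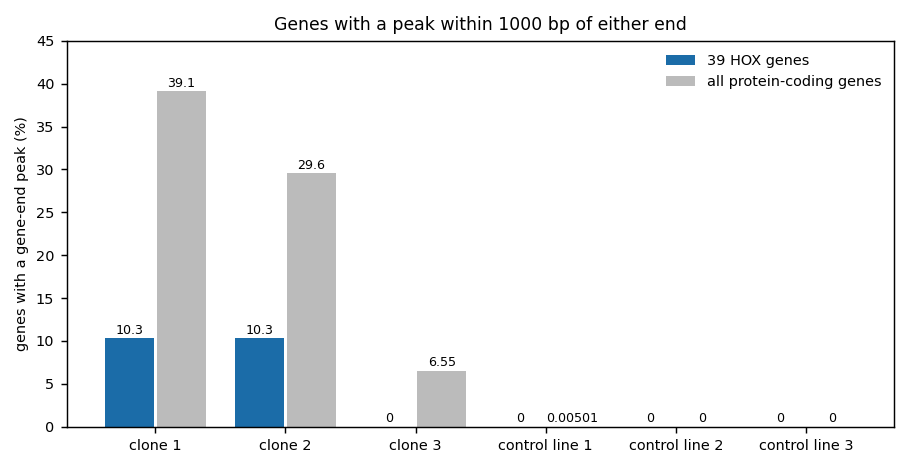
Share of genes with a peak within 1000 bp of either gene end (y axis, %) in each library, for the 39 HOX genes and for all protein-coding genes. HOX genes reached 10.3% in clones 1 and 2, against 39.1 and 29.6% of all genes, and 0 in clone 3 and the control lines.

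The HOXA cluster (chromosome 7, 27092993 to 27200091, 107.1 kb) held peaks only above HOXA6, on the side of its posterior genes. The lowest of these peaks, however, lay inside the anterior gene HOXA3, which extends past HOXA6. Inside the cluster lay 5, 2 and 0 peaks of clones 1, 2 and 3 and none of the control lines. No peak in any library lay at HOXA2, HOXA4, HOXA5, HOXA6 or HOXA7, nor within 1000 bp of their ends. HOXA9, a regulator of blood progenitors that drives myeloid leukaemia together with MEIS1, lies at 27162438 to 27165537 and had a gene-end peak in clones 1 and 2, but at opposite ends. The clone 1 peak (27166302 to 27166575, fold 3.01, 17 reads over a background of 4.97) had its summit 886 bp upstream of the HOXA9 start. The clone 2 peak (27161835 to 27161896, fold 4.07, 11 reads over 1.95) lay beyond the 3′ end, with its summit 567 bp outside the gene. A second clone 1 peak (27161002 to 27161262, fold 4.18, 16 reads over 3.07) lay between HOXA7 and HOXA9, 573 bp from the clone 2 peak and beyond the window. The HOXA9 promoter itself, from 250 bases before to 50 after the start, was touched by none of them.

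HOXA13, a posterior gene of limb and genital patterning, lies at 27194364 to 27200091 and had the only HOX gene-end site at which the peaks of 2 clones overlapped. In clone 1 the peak ran from 27200212 to 27200353 (fold 3.47, −log10 q 8.33, 42 reads over 11.4), and in clone 2 from 27200269 to 27200391 (fold 2.41, −log10 q 2.34, 28 reads over 11.0). They shared 85 bp, with summits 171 and 206 bp upstream of the HOXA13 start. This interval lies just past the end of the cluster, between HOXA13 and the start of HOTTIP, a long non-coding RNA known to bring WDR5 and MLL to posterior HOXA genes. The gap to HOTTIP was 68 bp in clone 1 and 30 bp in clone 2. Within its own list the clone 1 peak ranked in the top 17.7% by −log10 q, the highest of the HOX peaks in that clone, and the clone 2 peak in the top 90.5%.

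The remaining HOXA peaks overlapped genes. HOXA11, also a limb patterning gene, had a clone 1 peak across its start (27185189 to 27185454, fold 3.02, 21 reads over 6.29), which reached into HOXA11-AS. HOXA10, a regulator of myeloid progenitors and the uterus, had a peak inside the gene in clones 1 and 2 but not within 1000 bp of its ends. The clone 1 peak (27173398 to 27173930, fold 3.52, 20 reads over 4.97) had its summit 650 bp downstream of the alternative HOXA10 start site at 27174320. The clone 2 peak (27175352 to 27175461, fold 4.27, 26 reads over 5.32) had its summit upstream, at -1060 bp relative to that site, and lay 1422 bp from the clone 1 peak. HOXA3, which shapes the thymus and parathyroid, had a clone 1 peak (27150799 to 27151098, fold 4.35, 18 reads over 3.36) whose summit lay 28 bp upstream of its alternative start site at 27150950. That interval also falls within HOXA-AS3. HOXA3 and HOXA10 thus had peaks inside but none at their ends.

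**Figure D2:**
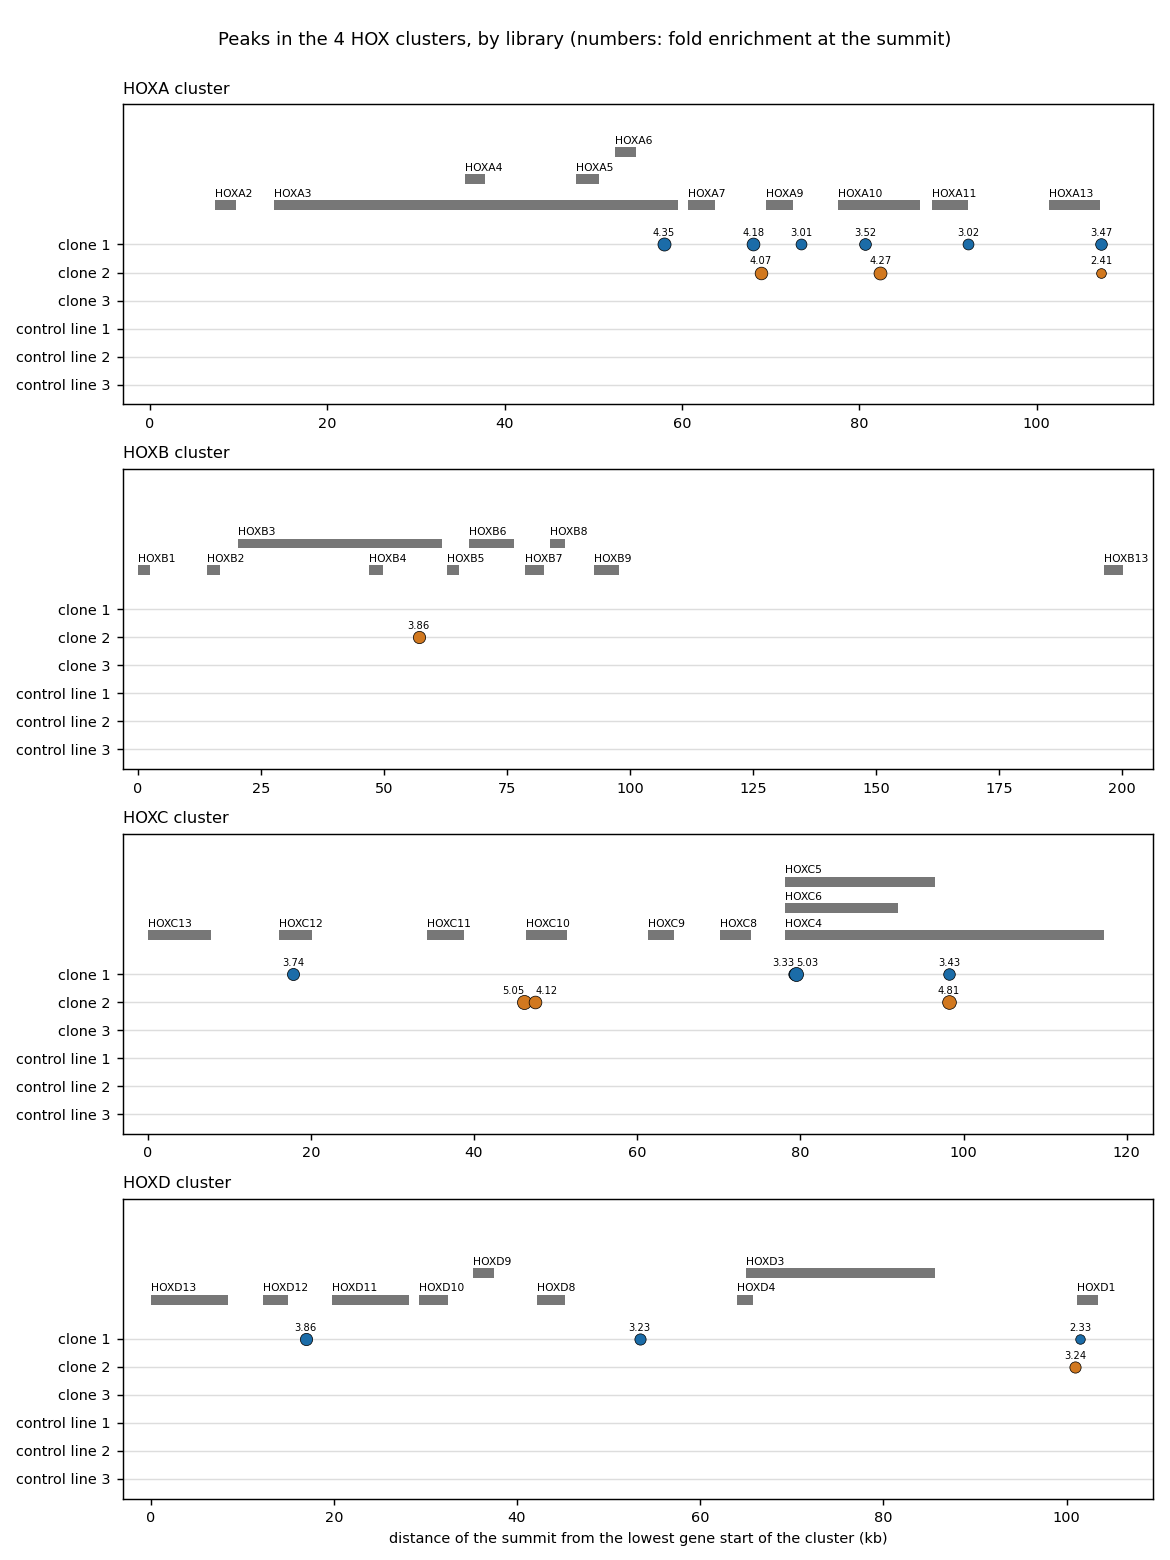
Peak summits in each library along the 4 clusters; the x axis is the distance from the lowest gene start (kb), grey bars are the genes named there, and points carry the fold enrichment, with larger points for higher folds. Peaks appear in clones 1 and 2 alone, and HOXB has a single peak, in clone 2.

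The HOXB cluster (chromosome 17, 48528526 to 48728750, 200.2 kb) was almost without peaks, with 0, 1 and 0 in clones 1, 2 and 3 and 0 in each control line. None of the 10 HOXB genes (HOXB1 to HOXB9 and HOXB13) had a gene-end peak in any library. They include HOXB4, known for expanding blood stem cells, and HOXB13, a prostate gene that lies apart from the others. The single peak (48585432 to 48585581, fold 3.86, 12 reads over 2.37, −log10 q 2.79) lay inside HOXB3 in clone 2, 508 bp from the non-coding RNA HOXBLINC. In clone 1 the whole cluster fell in a stretch of 723 kb without a peak, against a genome-wide mean of 216 kb per peak in that clone. In clones 2 and 3 the longest stretch without a peak that reached into the cluster was 256 and 1350 kb, against 124 and 1410 kb per peak. At the other clusters, in clone 2 the longest stretch was 711 kb at HOXD, 297 kb at HOXA and 257 kb at HOXC, and in clone 1 it was 102 kb at HOXD, 106 kb at HOXA and 229 kb at HOXC.

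The HOXC cluster (chromosome 12, 53938831 to 54056030, 117.2 kb) held 4, 3 and 0 peaks in clones 1, 2 and 3 and none in the control lines, most of them inside genes. HOXC10, a gene of lumbar spinal cord and hindlimb identity, had a clone 2 peak (53984992 to 53985064, fold 5.05, 14 reads over 1.97) just below its lower end, which is the 5′ end in this cluster. Its summit was 125 bp from that end and lay within HOXC-AS3. A second clone 2 peak lay inside HOXC10 (53986275 to 53986354, fold 4.12, 8 reads over 1.18), and a clone 1 peak lay inside HOXC12 (53956686 to 53956862, fold 3.74, 9 reads over 1.67). HOXC4, HOXC5 and HOXC6 share a lower end at 54016888, so a peak near it counts for all 3. There clone 1 had adjacent peaks at 54017915 to 54018076 (fold 3.33, 32 reads over 8.92) and 54018197 to 54018399 (fold 5.03, 22 reads over 3.57). The first began 1027 bp from the shared end and so fell just outside the window; the peak farthest out but still inside it was the clone 1 peak above HOXA9, at 765 bp.

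The HOX peak of clone 2 with the highest −log10 q lay in HOXC4, which is expressed in lymphoid cells. It ran from 54036937 to 54037143 (fold 4.81, −log10 q 11.5, 37 reads over 6.90, top 10.5% of its list) and fell wholly within a clone 1 peak at 54036872 to 54037188 (fold 3.43, −log10 q 6.74, 35 reads over 9.50). The summits were 36 bp apart. The site lies in the part of HOXC4 beyond HOXC5, 2827 bp from MIR615 in clone 1 and 2892 bp in clone 2. HOXC4, HOXC5, HOXC6, HOXC8, HOXC9, HOXC11, HOXC12 and HOXC13 had no gene-end peak in any library. Whether the HOXC4 site is exonic or intronic was not analysed here, because the gene table gives only gene starts and ends.

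The HOXD cluster (chromosome 2, 176087487 to 176190907, 103.4 kb) held 3, 1 and 0 peaks in clones 1, 2 and 3 and none in the control lines. HOXD1, the most anterior gene of the cluster, which patterns pain-sensing neurons in mice, lies at 176188668 to 176190907 and had a peak on each side of its start. The clone 2 peak (176188367 to 176188455, fold 3.24, 24 reads over 6.71) had its summit 269 bp upstream of the start, and the clone 1 peak (176188779 to 176188955, fold 2.33, 31 reads over 12.7) 282 bp downstream of it. They were 324 bp apart and both lay within the long non-coding RNA HAGLR, and the clone 1 peak also covered MIR7704. HOXD3, HOXD4, HOXD8, HOXD9, HOXD10, HOXD11, HOXD12 and HOXD13 had no gene-end peak in any library. The other clone 1 peaks lay between genes. The first, between HOXD12 and HOXD11 (176104177 to 176104539, fold 3.86, 35 reads over 8.33), was in the top 18.6% of its list. The second, between HOXD8 and HOXD4 (176140617 to 176140914, fold 3.23, 23 reads over 6.43), held 3 summits.

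The clusters were compared by the number of peaks per 100 kb relative to the genome-wide density of the same clone. This relative density was 10.1, 2.31 and 0 in clones 1, 2 and 3 for HOXA, 0, 0.617 and 0 for HOXB, 7.39, 3.16 and 0 for HOXC, and 6.28, 1.19 and 0 for HOXD. The means were 4.14 ± 5.29, 0.206 ± 0.356, 3.52 ± 3.71 and 2.49 ± 3.34 (SD, n = 3). Over its whole span with HOXB13, HOXB was thus the lowest of the clusters in clones 1 and 2. In clone 2, HOXB and HOXD held 1 peak each. With HOXB13 left out, HOXB no longer lay below HOXD in clone 2. The mean HOXB minus HOXD over the clones was then -2.07, against -2.29 with HOXB13. HOXA stood above HOXC in clone 1 by 2.72 and below it in clone 2, where HOXA minus HOXC was -0.855. Over the 6 pairs, an exact two-sided paired permutation test gave p = 1 for HOXA against HOXC and p = 0.5 for the other pairs (adjusted p = 1 and 0.6). Since clone 3 had no peak in any cluster, its differences were 0 and p could not fall below 0.5. The test could thus not separate the clusters. The mean difference exceeded its SD over the clones for HOXC minus HOXD alone (1.03 ± 0.987, n = 3), and that mean was -0.196 when every summit was counted. In the 500 kb on each side of HOXA there were 0.6 and 0.7 peaks per 100 kb in clones 1 and 2. The same flanks held 0.8 and 1.3 at HOXB, 2.1 and 2.9 at HOXC, and 0.3 and 0.1 at HOXD. Inside, HOXB had 0 and 0.499 and HOXC 3.41 and 2.56. HOXB was thus below its flanks in both clones, and HOXC in clone 2.

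Peak density was compared at the ends of HOX genes and in the rest of the clusters, with no test. Within 1000 bp of HOX gene ends (145 kb in all) there were 2.75, 2.75 and 0 peaks per 100 kb in clones 1, 2 and 3, against 10.2, 8.05 and 1.43 over all protein-coding gene ends. In the other 391 kb of the clusters there were 2.30, 1.02 and 0 peaks per 100 kb, against 0.228, 0.635 and 0.0381 over the sequence away from gene ends. Relative to the genome, HOX gene ends were thus below average and the rest of the clusters above it in clones 1 and 2. That rest held only 9 and 4 peaks. In clone 1 these included the peaks near the alternative start sites of HOXA3 and HOXA10, which are not gene ends here. At gene ends lay 4 of 13 HOX peaks of clone 1 (30.8%) and 4 of 8 of clone 2 (50%), against 51.8 and 23.4% of all their peaks. The share of a list inside the clusters was 0.0841% in clone 1 (12 peaks, exact Clopper-Pearson 95% interval 0.0435 to 0.147), 0.0280% in clone 2 (7 peaks, 0.0113 to 0.0577) and 0 of 2188 in clone 3 (0 to 0.168). The intervals cover counting error only, and that of clone 3 includes the shares of the other clones. The clusters make up 0.0171% of the sequence.

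**Figure D3:**
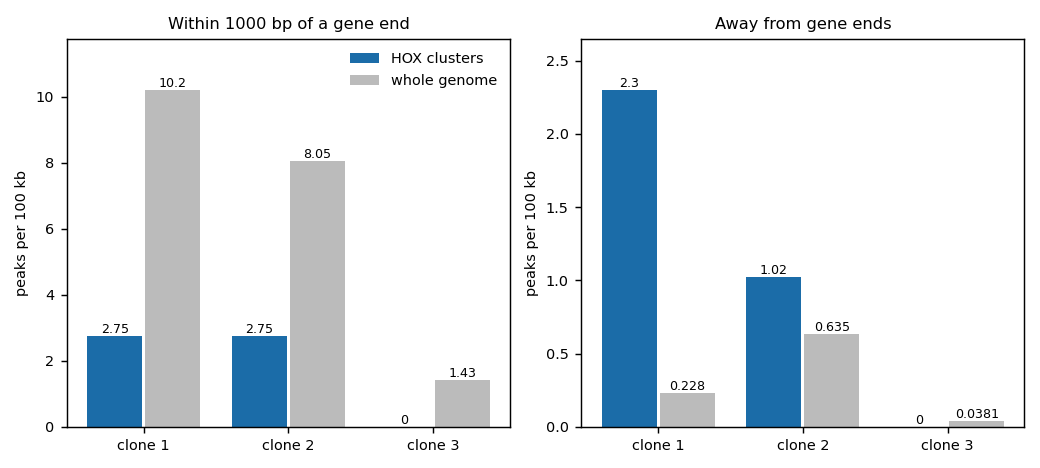
Peaks per 100 kb (y axis) in clones 1, 2 and 3, within 1000 bp of gene ends (left) and away from them (right), for the HOX clusters and for the whole genome; the panels have different scales. In clone 1, HOX gene ends had 2.75 against 10.2, and the rest of the clusters 2.30 against 0.228.

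The median folds of HOX peaks lay close to those of their lists. Their fold enrichments ran from 2.33 to 5.03 in clone 1 (median 3.47 over 13 peaks, against 3.54 over all its peaks) and from 2.41 to 5.05 in clone 2 (median 4.10 over 8 peaks, against 4.16). Of these, 5 of 13 and 3 of 8 exceeded the median of their list. The median −log10 q of HOX peaks was 4.25 in clone 1, against 4.56 over its list, and 3.42 in clone 2, against 4.63. A −log10 q of 5 was reached in 6 of 13 and 2 of 8 HOX peaks. The share of whole lists reaching 5 was not computed. When the clones were held to lists of equal length, the 2188 peaks of highest −log10 q, none of the clones had a peak in a cluster or at a HOX gene end. Clone 3 then had gene-end peaks at 6.55% of all protein-coding genes, against 9.53% in clone 1 and 5.31% in clone 2. The absence of HOX peaks from clone 3 was therefore matched by clones 1 and 2 at that list length.

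**Figure D4:**
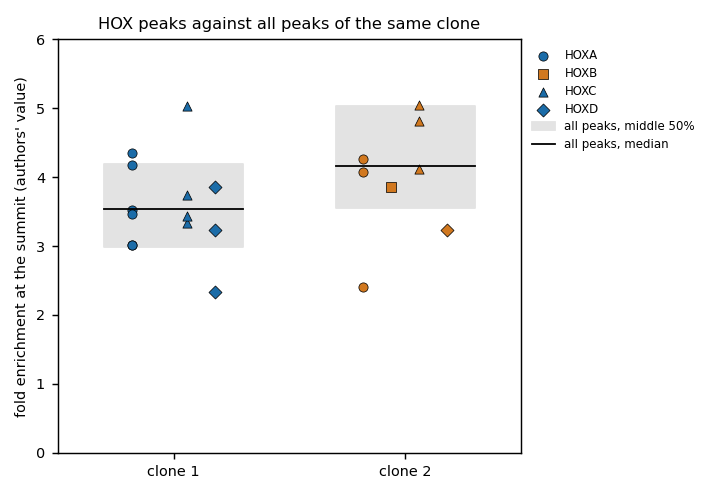
Fold enrichment at the summit (y axis) of each HOX peak in clones 1 and 2, with marker shapes for the clusters, against the median (line) and middle 50% (grey) of all peaks of the clone. Folds of HOX peaks ran from 2.33 to 5.03 in clone 1 and from 2.41 to 5.05 in clone 2, on both sides of the list medians of 3.54 and 4.16.

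Overlapping HOX peaks of clones 1 and 2 were found at the HOXA13 start and inside HOXC4, which made 2 of 13 peaks of clone 1 (15.4%) and 2 of 8 of clone 2 (25%). Over all peaks, 44.9% of those in clone 1 overlapped a clone 2 peak and 27.5% of those in clone 2 overlapped a clone 1 peak. Over the 4 clusters there were 12, 7 and 0 peaks in clones 1, 2 and 3 and none in the control lines. The means were 6.33 ± 6.03 and 0 (SD, n = 3 each), a difference of 0.672 on the log10(peaks + 1) scale (exact two-sided permutation p = 0.4). With 13, 4 and 2 peaks in the whole control lists, an absence of HOX peaks from them could not be told apart from the shortness of those lists.

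Gene-end peaks were recurrent at 10 of the 24 genes nearest to the clusters, 3 on each side (41.7%), against 3 of the 39 HOX genes and 23.3% of all protein-coding genes; the difference was not tested. In all 3 clones these were CBX3, HIBADH, CBX5, HNRNPA1, ATP5MC3 and HNRNPA3, and in clones 1 and 2 SKAP2, ATP5MC1, ATF7 and CALCOCO1. CBX5, which encodes the heterochromatin protein HP1 alpha, and HNRNPA1, a splicing regulator, share their peaks (folds 2.59, 5.39 and 2.21 in clones 1, 2 and 3). EVX1 and EVX2, homeobox genes that border HOXA and HOXD, had none in any clone. Some of these 24 genes lie far away, HNRNPA3 by 1020 kb from HOXD.

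Of the lists of genes that act on or with HOX genes, the Trithorax and MLL complex list had the highest share with recurrent peaks. The list was broad and also held DOT1L, AFF1, AFF4, MLLT1, MLLT3, MLLT10 and PICALM. Gene-end peaks were listed at 14, 6 and 1 of 16 genes in clones 1, 2 and 3, and were recurrent at 7 (43.8%, against 23.3% of all genes). KMT2A, the MLL histone methyltransferase that maintains HOX expression, had a fold of 4.18 in clone 1 and 4.59 in clone 2, and its partner MEN1 (menin) 3.81 and 3.26. Of the fusion partners carried by U937, PICALM had a peak in clone 1 (fold 3.22) and MLLT10 in none. Among HOX cofactors, 2 of 9 genes had recurrent peaks (22.2%). PKNOX1 had folds of 2.67, 6.65 and 3.01 in the 3 clones in order, and PBX3 4.78 in clone 1 and 3.67 in clone 2. MEIS1, the partner of HOXA9, had a peak in clone 2 alone (fold 2.62). In clones 1, 2 and 3, 2, 8 and 1 of the 9 cofactor genes had a gene-end peak, against 39.1, 29.6 and 6.55% of all protein-coding genes.

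Recurrent peaks were listed at 4 of 29 Polycomb genes (13.8%, against 23.3% of all protein-coding genes). By clone, 12, 9 and 1 of the 29 had a gene-end peak in clones 1, 2 and 3. The shares of all protein-coding genes were 39.1, 29.6 and 6.55%. RBBP4, a histone-binding subunit, had folds of 3.64, 6.62 and 3.17 in the 3 clones in order, and EZH2, the methyltransferase of the complex, had 2.34 in clone 1 alone. At CTCF and cohesin genes recurrent peaks were listed for 3 of 8 (37.5%, against the same 23.3%). By clone, gene-end peaks were listed at 7, 3 and 1 of the 8 in clones 1, 2 and 3. STAG1, a cohesin subunit, had them in all 3 clones at 3.91, 2.75 and 2.48. CTCF itself had 5.53 and 2.72 in clones 1 and 2. The genes upstream of HOX, the CDX factors and retinoic acid receptors, had recurrent peaks at 0 of 6, also against 23.3%, and RARB in clone 2 was their only peak. No control line had a gene-end peak at any gene of these lists. The members of these lists were not tested as sets, and the counts stand beside the background share as a description.

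**Figure D5:**
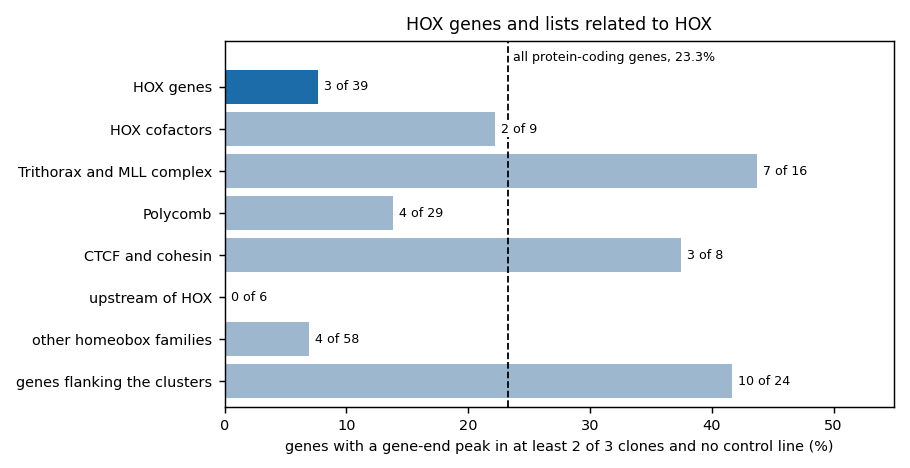
Share of genes (x axis, %) with a recurrent gene-end peak, for HOX genes, lists related to HOX and the genes flanking the clusters; the dashed line is the share of all protein-coding genes. HOX genes had 3 of 39 against a background of 23.3%, and Trithorax and MLL complex genes 7 of 16.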

How the data were processed

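Peak lists were deposited for 6 ATAC-seq libraries, 3 ΔNSPs clones and 3 control lines, grouped by the sample titles. Per the submitters' processing notes the tools were FastQC, Bowtie2, Picard and MACS2 on build GRCh38. Those notes name no version or setting, and a correction for the transposase cut position is not stated. Library names within the peak names show that peaks were called per library. The fold of each summit is the authors' ratio over local background. The authors' −log10 p and −log10 q were used as deposited. The deposited score was not used.

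Lines with the same interval were taken as 1 peak with its highest summit. Genes came from RefSeq (GRCh38.p14), without exons, and a gene-end peak overlapped by 1 bp or more a window of 1000 bp either side of a gene's start or end. A cluster ran from its lowest gene start to its highest gene end. Pile-up and background were solved from fold and p, whole within 0.05 read for at least 99.99% of peaks per list, and the solver recovered simulated pile-ups. Read totals are unknown. Exact permutation tests used SciPy 1.17.1. All members are counted, though some named items are not reported here. Those with a gene-end peak are described in every library, and list genes with peaks in all 3 clones are named, beside others chosen after their values were seen. Members and lists were chosen with earlier results of these data known. The homeobox families list was written after the files were seen. Replicate numbers do not mark pairs in the labels, and control lines all had 0 HOX peaks, so no correlation of deviations could be computed.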

Additional observations from a re-analysis of the deposited data

How the results depend on the processing

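The count of HOX genes with recurrent gene-end peaks was 3 over all clusters (HOXA 2, HOXB 0, HOXC 0, HOXD 1). It was 0 at a minimum −log10 q of 5, at a minimum fold of 4, with lists of equal length and with a peak required in all 3 clones, also for HOXA and HOXD. With a peak in at least 1 clone it was 5 (HOXC 1). With a window of 500 bp HOXA had 1, with 2500 bp HOXC had 1, and around RefSeq start sites, an alternative chosen after seeing the data, HOXA had 1. Leaving out a library gave 0 to 3 genes in all (HOXA 0 to 2, HOXB 0, HOXC 0, HOXD 0 to 1); the value was 0 without clone 1 or clone 2. Since all control lines had 0 HOX peaks and the smallest possible p is 0.1, the difference between clones and control lines on the log10 scale could neither turn negative nor pass a threshold of 0.05. It ran from 0.349 to 0.699 for genes and from 0.452 to 1.01 for peaks when a library was left out, and was 0 for both with lists of equal length, where no clone had a HOX peak.

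With clone and control line of the same number as a replicate block, the differences were 0.466 for genes and 0.672 for peaks, with an exact p of 0.5 each (smallest possible 0.25). The shared numbers do not mark pairs in the labels. Among cluster pairs, the mean HOXA minus HOXC reversed to -2.58 at a minimum −log10 q of 5, and without clone 1 it was -0.428 (range -0.428 to 1.36). HOXC minus HOXD reversed to -0.196 when every summit was counted, where a single HOXD interval counts 3 times. HOXB minus HOXD was 0 with a fold of 4 or more and -2.07 with HOXB13 left out of its cluster. All pairs were 0 with lists of equal length. Leaving out a clone gave 0.845 to 5.90 for HOXA minus HOXB, 0.556 to 2.47 for HOXA minus HOXD, -4.97 to -1.27 for HOXB minus HOXC, -3.43 to -0.289 for HOXB minus HOXD and 0.554 to 1.54 for HOXC minus HOXD. Over all alternatives 32 values moved and 3 reversed; the other 136 say little about stability, because no test here could pass its threshold. The HOX peaks had pile-ups of 8 to 42 reads at their summits, and the control lists hold 13, 4 and 2 peaks. Read totals are unknown, and the part of depth in these results was not tested.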

Other observations

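Homeobox genes outside the HOX clusters also had few gene-end peaks. Of 58 genes of the DLX, LHX, IRX, PITX and similar families, 9, 7 and 1 had one in clones 1, 2 and 3, and 4 had recurrent ones (6.90%, against 23.3% of all protein-coding genes), while 46 had none. Those with recurrent peaks included DLX4, DLX1 and DLX2. DLX1, a factor of forebrain interneurons, had folds of 4.59, 2.15 and 1.91 in the 3 clones in order.

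Peaks at non-coding genes within the clusters are given without a share over all non-coding genes, which was not computed. MIR196B, MIR10A, MIR10B, MIR196A1, MIR196A2 and MIR615 overlapped none in any library, and neither did HOTAIR, HOTAIRM1 or HOTTIP. HAGLR overlapped a peak in clones 1 and 2, HOXA-AS3, HOXA11-AS and the microRNA MIR7704 in clone 1, and HOXC-AS3 in clone 2. MIR196B, which lies between HOXA9 and HOXA10, was 2905 bp from the nearest clone 1 peak and 5789 bp from the nearest clone 2 peak.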
